A study of Drosophila melanogaster with 6 samples.

Results

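The cytosolic ribosome builds every protein that the nucleus encodes, from a small subunit that reads the mRNA and a large subunit that joins the amino acids. Its proteins are made in matched amounts, and in *Drosophila melanogaster* the loss of 1 copy of many of their genes gives the Minute phenotype of slow growth and thin bristles. Insulin and TOR signalling are known to promote ribosome production and the translation of ribosomal protein mRNAs in growing cells. A stage 14 oocyte, the last stage before the egg is laid, stores ribosomes and mRNAs supplied by the nurse cells for use in the early embryo.

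The genes described here are the cytosolic ribosomal protein genes, chosen by name: symbols that begin with RpL, RpS or RpLP and a number, together with sta, the gene of small subunit protein SA. They were 92 of the 14862 genes in the authors' deposited table, 53 of the large and 39 of the small subunit. With the 5 genes whose names end in "like" set aside, the other 87 genes covered 79 different protein names, 47 of the large and 32 of the small subunit. All 92 had a likelihood ratio above 0 and count as tested, among 13080 tested genes in all. The symbol RpL37A, with a capital A, names a different protein from the pair RpL37a and RpL37b and was treated as single-copy.

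The study compared 3 samples of InR-DN oocytes with 3 samples of GFP control oocytes, each a pool of 200 stage 14 oocytes from flies kept on standard food with yeast paste. InR-DN is the form of the insulin receptor that the submitters express to suppress insulin signalling. The labels give neither the driver of the transgenes nor the age of the flies, and nothing in them tells whether pools came from separate crosses, so p-values measure only the spread between these samples, which may be technical. The labels call the RNA polyA selected, while the kit they name is one for total RNA. The title of the authors' deposited table calls its samples embryos.

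The values used here are the authors' comparison of 2 groups, so no level per sample can be given, the depth is unknown and no spread between replicates could be measured. Each gene has a log2 fold change, a likelihood ratio with its p-value and adjusted p-value, and an average abundance in log2 CPM (read counts on a scale common to all library sizes). It does not state which group is on top of the fold change, and positive and negative values are therefore not assigned to InR-DN or to GFP control oocytes. For each gene the ratio of the size of its log2 fold change to the root of the likelihood ratio was taken as an implied SE, and a 95% interval as 1.96 of these SE on either side. As a check of the tissue, 8 oocyte and germline markers such as osk and nos had averages of 3.11 to 9.76 log2 CPM in the authors' deposited table, and none was called, that is, had an adjusted p under 0.05. Transcripts of other cells were present too: 8 eggshell genes of the follicle cells, with 0 called, had averages of 7.95 to 12.31 in the authors' deposited table. The 5 gut genes, all called and positive, had averages of 1.57 to 3.93. The 3 muscle genes, with 0 called, differed widely, with averages of 9.05 for Tm1, 1.67 for Mhc and -3.05 for Act88F. They therefore do not show that muscle RNA was present. Over all tested genes 5.1% were called. The gene lists were chosen with earlier results of these data known, so the count of called gut genes is not a test. In such bulk samples, fewer cells of a type and less RNA per cell cannot be told apart.

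Ribosomal protein mRNAs were among the most abundant in the table and none was called different between the groups. By the authors' likelihood ratio test, 0 of the 92 genes had an adjusted p under 0.05, against 5.1% of all tested genes. At an unadjusted p under 0.05 there was 1 gene, RpS10a, against 11.4% of all tested genes. Calls were rare at high averages throughout the table: among the 710 tested genes averaging 8 log2 CPM or more, which include 83 of the 92, 2 were called and an unadjusted p under 0.05 was listed for 0.845%. The median log2 fold change of the 92 genes was 0.04, with the middle of the distribution (lower to upper quartile) between -0.01 and 0.10, beside a median of 0.03 over all tested genes. A log2 fold change smaller than 0.3 in size was found for 86 of the 92 genes. The 6 larger ones belonged to RpS10a, RpS19b, RpS28a, RpS28-like, RpL22-like and RpL37b, which are all copies with low averages.

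**Figure D1:**
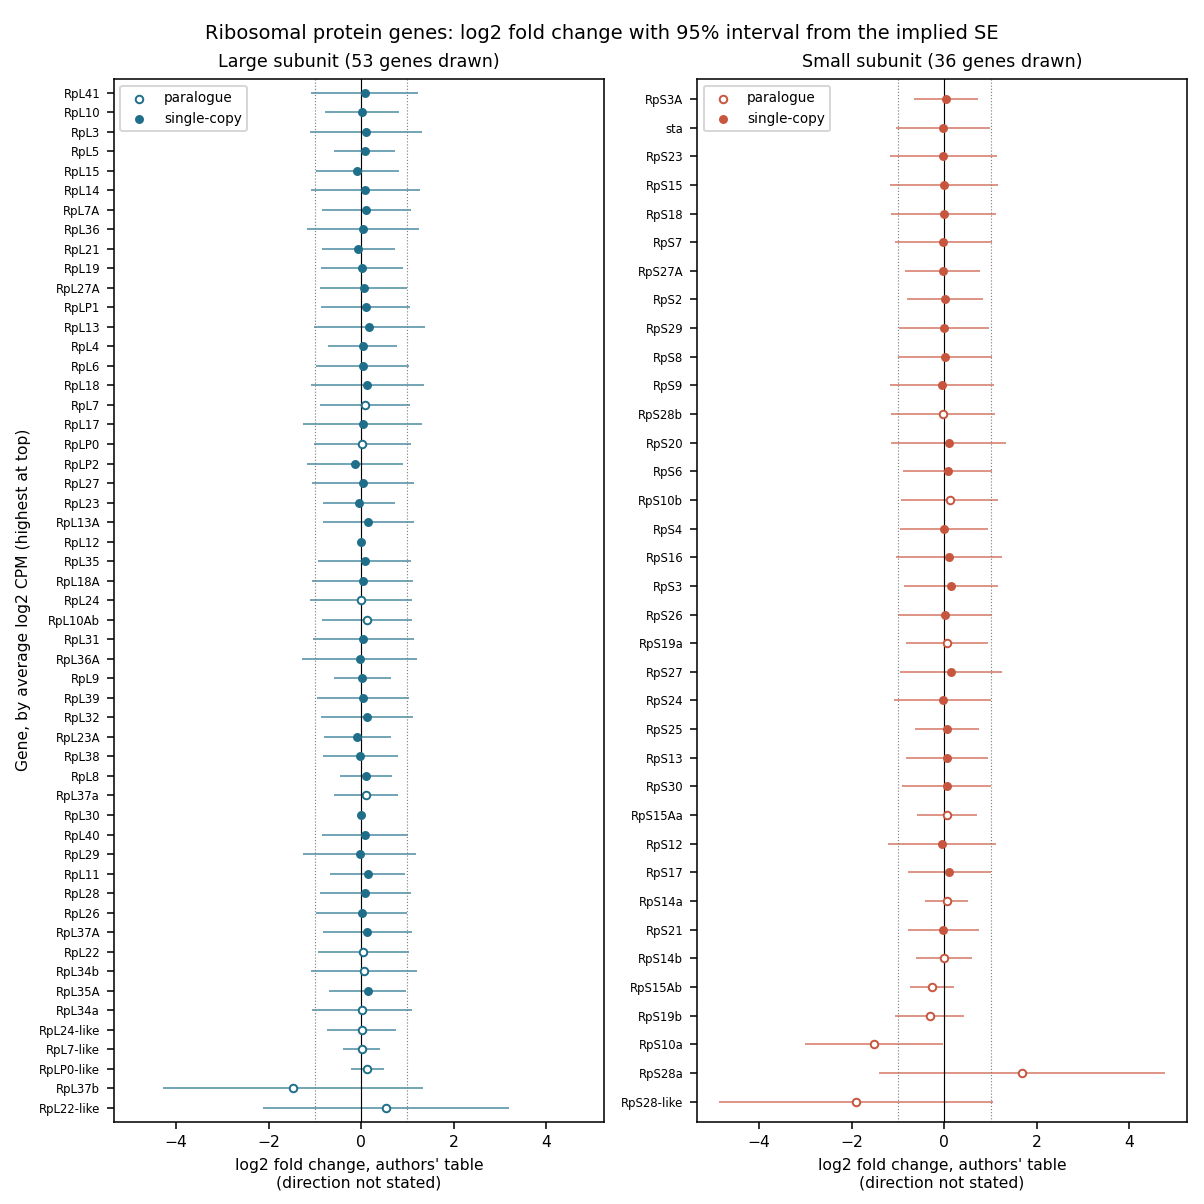
The log2 fold change (x axis, points) of 89 genes is drawn with its 95% interval from the implied SE (bars), for the large subunit on the left and the small subunit on the right, ordered by average log2 CPM. The dotted lines mark a 2-fold change; all points with high averages lie close to 0 while most bars reach beyond a 2-fold change, and RpL12 and RpL30 have no bar because their likelihood ratio was too near 0.

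Abundance was high and even across the subunits. The averages of the authors' deposited table, in log2 CPM, had a median of 10.63 for the large and 10.69 for the small subunit. By the authors' deposited table, abundance peaked with RpS3A, a small subunit protein of the mRNA exit side, at 12.12, RpL41, the smallest ribosomal protein, at 11.81, and RpL10, which sits close to the peptidyl transferase centre, at 11.70. Of the 100 genes with the highest averages in the table, 59 were ribosomal protein genes. Summed on the linear scale, the 92 averages made up 14.4% of the sum over all genes. Per kilobase of transcript, which is the scale on which genes can be compared, the median was 11.02 log2 units for the large and 11.10 for the small subunit. The 66 single-copy genes lay between 10.06 for RpS21 and 13.45 for RpL41 on this scale. Their transcripts are short, with a median of 670 bases in the Ensembl release 115 annotation.

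The median log2 fold change was 0.04 for the 53 large subunit genes and 0.01 for the 39 small subunit genes, a difference of 0.03. With means in place of medians the difference was 0.048. Positive values were listed for 43 of 53 large and 21 of 39 small subunit genes, or 81.1% and 53.8%. The share was 55.9% over all tested genes and 76.9% over the other genes with averages of 10 to 12 log2 CPM. The sign depended on the centring: 64 of the 92 genes were positive as deposited, 49 after subtraction of the median of all tested genes, and 26 after subtraction of the median of the other genes with averages of 10 to 12 log2 CPM. No direction can therefore be given for the family or for a subunit, and the difference between the subunits was not tested, since no values per sample were used here.

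**Figure D2:**
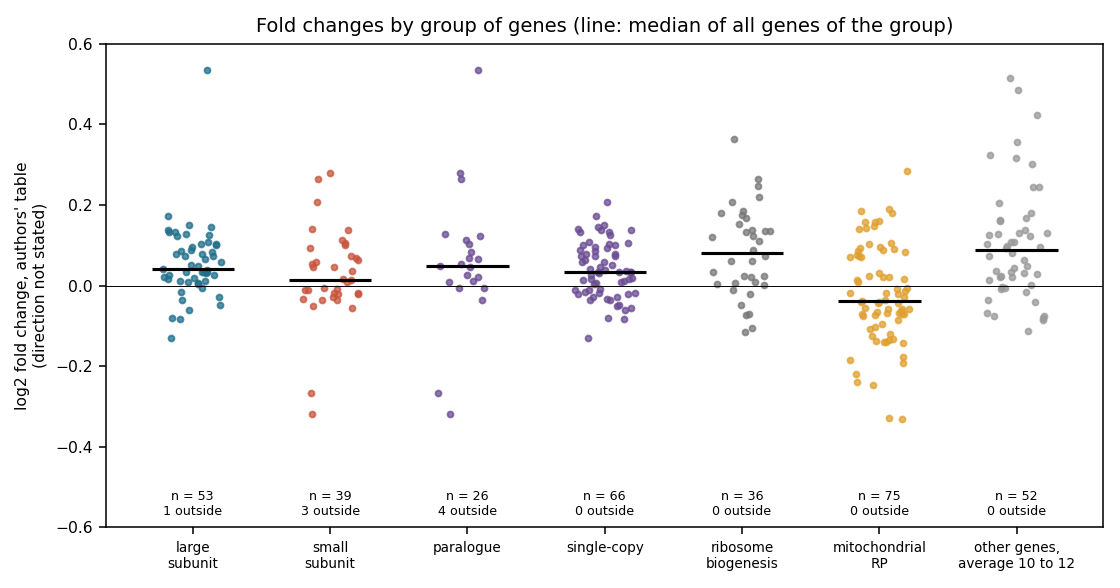
Each point is the log2 fold change of 1 gene (y axis) in a group of genes (x axis), and the black line is the median of all genes of the group. The subunit medians are 0.04 for the large and 0.01 for the small subunit; the axis ends at 0.6 in either direction, and the genes outside it, which are RpL37b, RpS10a, RpS28a and RpS28-like, are counted at the foot of each group.

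Among large subunit proteins, the stalk recruits elongation factors. The authors' deposited table gave its base, RpLP0, a log2 fold change of 0.03, with 0.53 as its implied SE. RpLP1 and RpLP2, its acidic arms, were at 0.10 (implied SE 0.49) and -0.13 (implied SE 0.53) by the authors' deposited table. RpLP2 was the lowest of all single-copy genes, and its 95% interval ran from -1.17 to 0.91. RpL5 and RpL11, which carry the 5S rRNA into the large subunit, were at 0.08 (implied SE 0.34) and 0.14 (implied SE 0.41) by the authors' deposited table. RpL3, RpL8 and RpL10, which lie near the site where peptide bonds form, stood at 0.10, 0.10 and 0.02 by the authors' deposited table. RpL8 had the narrowest interval of the single-copy genes, from -0.45 to 0.66, and was thus bounded within a 2-fold change. The 8 proteins of the exit tunnel and its rim, such as RpL4, RpL17 and RpL39, had log2 fold changes from -0.08 to 0.07, and RpL17 had the widest interval of the single-copy genes, from -1.25 to 1.32. The most positive large subunit genes with averages of at least 5 log2 CPM in the authors' deposited table were RpL13 at 0.17 and RpL13A at 0.15. After RpLP2, the most negative were RpL23A at -0.08, RpL15 at -0.08 and RpL21 at -0.06 in the authors' deposited table.

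Among small subunit proteins, RpS6, the substrate of S6 kinase downstream of insulin and TOR, was listed by the authors' deposited table at a log2 fold change of 0.07. Its implied SE was 0.49, and its 95% interval, from -0.89 to 1.04, just exceeded a 2-fold change. RpS3 and RpS2, which line the entry of the mRNA, were at 0.14 (implied SE 0.52) and 0.01 (implied SE 0.42) by the authors' deposited table. The authors' deposited table put RpS23, a protein of the decoding site, at -0.02 (implied SE 0.59) and sta at -0.03 (implied SE 0.51). RpL40, RpS27A and RpS30 are made as fusions with ubiquitin or a ubiquitin-like protein, and stood at 0.08, -0.03 and 0.05 by the authors' deposited table.

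The log2 fold changes of the 66 single-copy genes lay close to each other. They had an SD of 0.07 across genes, while the median implied SE was 0.50. Genes measured in the same libraries can share errors, so the implied SE does not say how far apart these genes should lie. For 63 of the 64 single-copy genes with an implied SE, the log2 fold change was smaller than 0.5 of that SE. The share was 98.4%, beside 78.4% for the other genes with averages of 10 to 12, 86.7% for the mitochondrial ribosomal protein genes and 42.9% for all tested genes. A wider SE raises this share by itself, and the median implied SE of the other genes in that range was 0.33. By the authors' likelihood ratio test the median unadjusted p of the single-copy genes was 0.922, beside 0.785 for the other genes in that range and 0.527 for all tested genes. Genes are not independent replicates, and these shares describe the table without a test.

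The implied SE of ribosomal protein genes were wide for their abundance. The mitochondrial ribosomal protein genes described below were also wide, though beside a set of genes not matched to them. Between 10 and 12 average log2 CPM the table held 126 tested genes, of which 74 were ribosomal protein genes. The median implied SE was 0.51 for the ribosomal protein genes and 0.33 for the other 52. Of the 72 ribosomal protein genes with an implied SE in this range, 70 exceeded the median of the others, and 1 of 51 others exceeded the median of the ribosomal protein genes. That gene was Cp36, an eggshell gene, at 0.61. Rack1, a ribosome-bound scaffold protein of the small subunit, had an implied SE of 0.49 and a log2 fold change of 0.10 by the authors' deposited table. Transcript length differed as well, with medians of 707.5 bases for the ribosomal protein genes in this range and 1870 for the others. Among the 16 others no longer than the longest ribosomal protein transcript in the range, 1512 bases, the median implied SE was 0.35. The part of transcript length in the width was not tested.

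**Figure D3:**
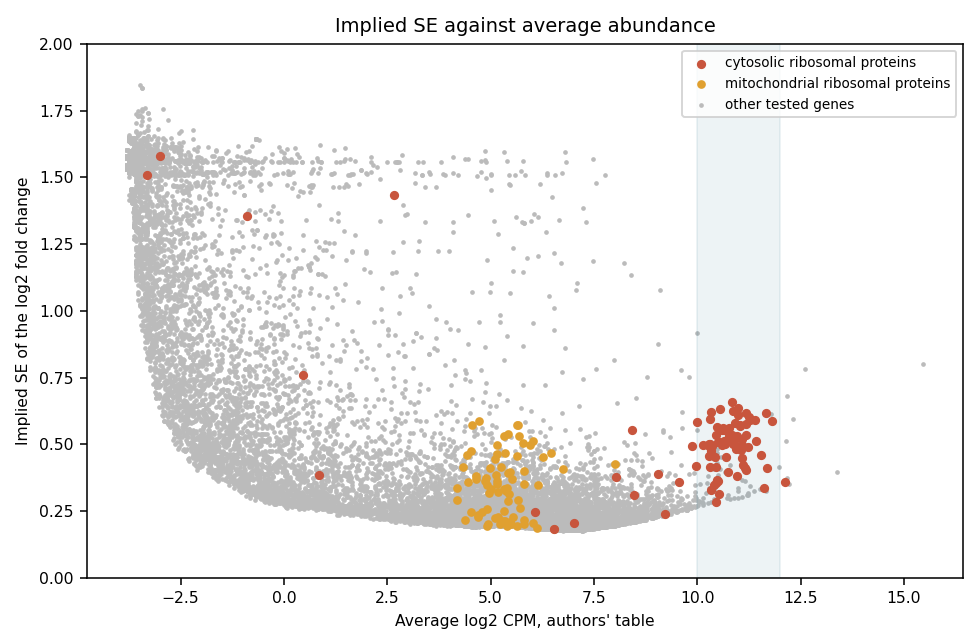
The implied SE of the log2 fold change (y axis) is plotted against the average log2 CPM (x axis) for tested genes, with cytosolic ribosomal protein genes in red, mitochondrial ones in yellow and all others in grey. In the shaded range of 10 to 12 log2 CPM the red points centre on 0.51, above the 0.33 of the other genes.

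The wide SE set what could be seen. At its own implied SE, a ribosomal protein gene of median width would have needed a listed log2 fold change of 1.53, or 2.89-fold, to pass the likelihood ratio of 9.37 that the weakest called gene reached. The corresponding value was 1.96-fold over all tested genes. A 2-fold change would have reached that mark for 7 of the 90 ribosomal protein genes with an implied SE, or 7.78%, beside 51.4% of all tested genes. Those 7 were RpLP0-like, RpL7-like, RpS14a, RpS14b, RpS15Ab, RpL8 and RpL9. The 95% intervals lay within a 2-fold change for 34 of the 90 genes, 19 of 51 in the large and 15 of 39 in the small subunit.

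Several ribosomal protein genes have a second copy in the fly genome, and some second copies are known from the germline or testis. The log2 fold changes of the 26 paralogue genes, which are those with names ending in a, b or "like" and the 4 partners of "like" genes, had a median of 0.05, beside 0.03 for the 66 single-copy genes. Their mean was negative, at -0.07, and had the opposite sign to their median, because 4 copies with low averages lay beyond 1 in size, of which 3 were negative. The 66 single-copy genes had a mean of 0.04. The average log2 CPM had a median of 9.39 for paralogue genes and 10.81 for single-copy genes. Per kilobase of transcript the medians were 9.65 and 11.24 log2 units for paralogue and single-copy genes. In the pairs below, the copy with the lower average is given first, and that order rests on the values themselves.

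In 3 pairs even the lower copy averaged 8.42 log2 CPM or more, among them the pairs of RpS14 and RpL34. RpS14b and RpS14a, neighbouring genes known to encode the same protein, had averages per kilobase of 9.26 and 9.62 log2 units. Their log2 fold changes were -0.01 and 0.05 in the authors' deposited table, in the same order. RpS14a had the narrowest interval of the small subunit, from -0.42 to 0.52, but how the authors' counting treated reads shared by near-identical copies is not given in the sources used here. RpL34a and RpL34b were at 9.14 and 10.54 log2 units per kilobase, with log2 fold changes of 0.02 and 0.07 in the authors' deposited table.

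A further 4 pairs had a second copy with an average from 6.07 to 8.03 log2 CPM. In 3 of them the second copy is known as an assembly factor and not as a part of the finished ribosome, from its relatives in yeast: RpL24-like (Rlp24), RpL7-like (Rlp7) and RpLP0-like (Mrt4). RpL24-like averaged 8.40 log2 units per kilobase, against 10.90 for RpL24. RpL7-like and RpLP0-like averaged 7.08 and 6.62, against 10.82 for RpL7 and 10.49 for RpLP0. Their log2 fold changes in the authors' deposited table were 0.01 for RpL24-like, 0.01 for RpL7-like and 0.13 for RpLP0-like. RpLP0-like had the narrowest interval of all 92 genes, from -0.23 to 0.49, followed by RpL7-like, from -0.39 to 0.41. RpS15Ab was at 6.54 log2 units per kilobase, against 10.77 for RpS15Aa. The log2 fold change of RpS15Ab was -0.27 (implied SE 0.25, unadjusted p 0.275) by the authors' deposited table, the most negative among the ribosomal protein genes with averages of at least 5 log2 CPM, against 0.05 for RpS15Aa.

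The remaining 6 second copies had low averages, from -3.31 to 2.68 log2 CPM in the authors' deposited table, where the lowest of any tested gene was -3.80. RpS10a was the copy with an unadjusted p under 0.05. Its log2 fold change was -1.51 by the authors' deposited table (implied SE 0.76), with an unadjusted p of 0.0472 and an adjusted p of 0.479. Its average log2 CPM was 0.45, against 10.96 for RpS10b, whose log2 fold change was 0.11 in the authors' deposited table. RpS19b, a copy known from early germline cells of the ovary, had a log2 fold change of -0.32 by the authors' deposited table (implied SE 0.38) and an average of 0.85, against 0.07 and an average of 10.69 for RpS19a. RpL22-like, known from the germline and above all the testis, had a log2 fold change of 0.54 by the authors' deposited table (implied SE 1.36) and an average of -0.90, against 0.05 and 10.13 for RpL22. RpS28a and RpS28-like stood at 1.67 and -1.91 by the authors' deposited table, opposite in sign, with implied SE of 1.58 and 1.51 and averages of -3.00 and -3.31, against -0.04 and 11.02 for RpS28b. RpL37b had a log2 fold change of -1.48 by the authors' deposited table (implied SE 1.43) and an average of 2.68, against 0.10 and 10.41 for RpL37a. With averages this low, it is not known whether either group held more than a few reads of these copies.

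Within the 13 pairs, no difference in log2 fold change between the copies exceeded 1.75 of its combined implied SE, and 9 were under 1. In units of the combined SE the largest difference was RpS10a minus RpS10b, -1.62 on the log2 scale with a combined SE of 0.93. On the log2 scale itself RpS28-like minus RpS28b, at -1.87, and RpS28a minus RpS28b, at 1.71, were larger in size, with wider combined SE. The combined SE treats both copies as independent, which copies measured in the same libraries are not. The partner gene RpL10Aa was not among the 92 symbols that the naming rule found, so RpL10Ab, a paralogue by its name, is in no pair here. RpL10Ab had a log2 fold change of 0.12 by the authors' deposited table.

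**Figure D4:**
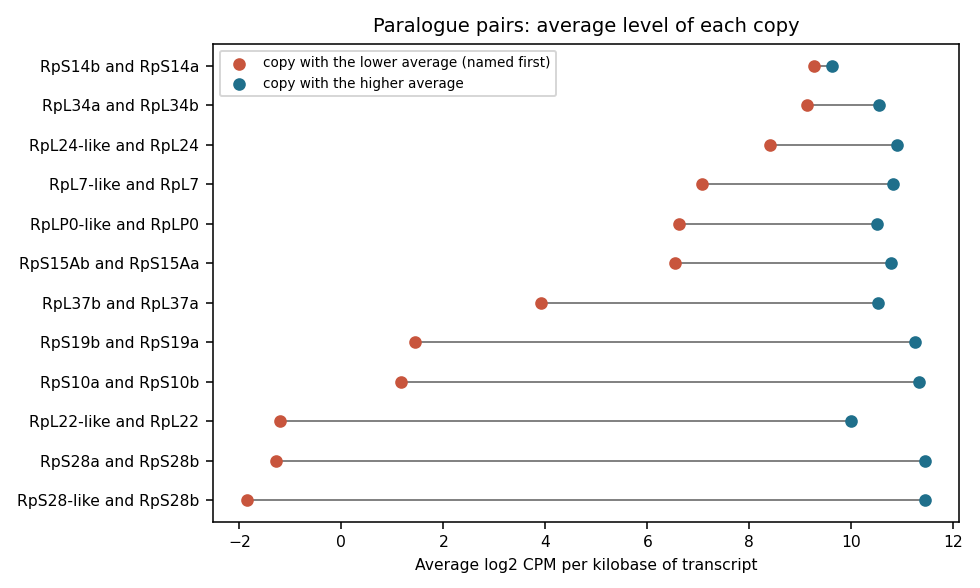
Average log2 CPM per kilobase of transcript (x axis) is shown for both copies of 12 pairs (y axis), with the copy of the lower average in red and the other in blue. RpS14b and RpS14a lie close together, at 9.26 and 9.62, while RpS28-like and RpS28a lie at -1.85 and -1.28 against 11.45 for RpS28b.

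Genes that make and regulate ribosomes were counted in the same way. The background over all tested genes was 5.1% called and 11.4% at an unadjusted p under 0.05, and in lists of this size counts of 0 or 1 called genes lie near it. At averages of 5 to 8 log2 CPM the background was lower. Of the 4396 tested genes there outside the cytosolic family, 42 were called and 127 had an unadjusted p under 0.05 by the authors' likelihood ratio test. The biogenesis, RNA polymerase I and regulator lists had median averages of 6.27, 5.96 and 6.63. Of 36 ribosome biogenesis genes, such as Fib, the rRNA methyltransferase fibrillarin, and Nop56, 0 were called, and the median log2 fold change was 0.08, beside 0.03 over all tested genes. Fib was at 0.27 (implied SE 0.28) by the authors' deposited table, and nclb had the lowest unadjusted p of the list, 0.0809. The list for RNA polymerase I and rRNA transcription held 11 tested genes, some not specific to that polymerase, such as RpII15 and Rpb5. Of these 11 genes, 0 were called, and the median was 0.02. RpI1, the largest subunit of RNA polymerase I, was at 0.19 (implied SE 0.18) by the authors' deposited table, and Tif-IA, the initiation factor through which TOR controls rRNA synthesis, at -0.11 (implied SE 0.20). Of 25 regulators of ribosomal protein gene expression, 0 were called, and an unadjusted p under 0.05 was listed for 0. Their median was -0.002, and all 25 intervals lay within a 2-fold change. The Myc gene dm was at 0.07 (implied SE 0.23) and larp, whose product binds mRNAs with a terminal pyrimidine tract such as those of ribosomal proteins, at 0.20 (implied SE 0.24) by the authors' deposited table. Xrp1, which acts in the response to Minute mutations, was at 0.09 (implied SE 0.21) by the authors' deposited table.

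The list of elongation and termination factors held 19 symbols, some of them older and newer names of 1 gene, and 12 were found in the table. Of these 12 genes, 0 were called, and 1 reached an unadjusted p under 0.05, beside 5.1% and 11.4% of all tested genes. That gene was Ef1alpha100E, the second gene of elongation factor 1 alpha, at 0.94 by the authors' deposited table (implied SE 0.37, unadjusted p 0.0106, adjusted p 0.171), with an average of 1.38 log2 CPM. Its abundant partner Ef1alpha48D was at 0.01 (implied SE 0.40) with an average of 13.38 in the authors' deposited table. The mitochondrial ribosome offers a comparison of like size, with 75 genes whose transcripts are also short, with a median of 740 bases. The median log2 fold change was 0.04 for the 92 cytosolic and -0.04 for the 75 mitochondrial ribosomal protein genes, and the median implied SE was 0.50 and 0.35. The families differ in abundance, with median averages of 10.64 and 5.32 log2 CPM. Tested genes outside the cytosolic family with averages of 5 to 8 log2 CPM had a median implied SE of 0.22. The mitochondrial genes thus had a wider median implied SE than this set, but the sets were not matched in abundance or length. The comparison set had a median average of 6.24 log2 CPM and a median transcript of 2256 bases. The mitochondrial averages ran from 4.18 to 8.02 log2 CPM, partly outside its range. An interval within a 2-fold change was found for 34 of 90 cytosolic and 60 of 75 mitochondrial genes. The difference between the families was not tested.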

How the data were processed

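RNA of stage 14 oocytes was measured in 3 InR-DN and 3 GFP control samples, and 1 table of the authors' comparison was used. Per the file headers, the values deposited by the authors are log2 fold changes and average log2 CPM (both on a log2 scale), a score, namely the likelihood ratio of a generalised linear model, and its p-values before and after adjustment. Per the submitters' processing notes, FastQC, Bowtie and TopHat were among the tools. The genome build, the read counter, the normalization and the libraries in the fit have no statement in the labels or headers. The deposited p-values differed from the chi-square tail with 1 degree of freedom by at most 6.4e-15. A count test planned for a count table was not run, because the deposited values are log2 values and p-values.

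Implied SE were computed where the likelihood ratio exceeded 0.0001, which left out RpL12 and RpL30. They were tested on counts simulated with 1 known dispersion for genes averaging at least 5 log2 CPM. That simulation does not cover the copies with lower averages, nor the authors' own dispersions, which are not known. A gene was called at an adjusted p under 0.05 over the whole table. Members, gene lists and pairs were chosen with earlier results of these data known. Named genes are those with an unadjusted p under 0.05, the 5 largest of either sign with averages of at least 5 log2 CPM, the highest and lowest averages, paralogues, extreme intervals and genes named for their role. Some genes that the rule names are not reported here. RpL9 and nclb were named after their values were seen. Of the 92 symbols, 90 matched the RefSeq gene table of Release 6 plus ISO1 MT and 2 matched by synonym. Transcript length is the median over a gene's transcripts in Ensembl release 115, which may differ from the authors' annotation; no coordinates are given for this reason. Values were computed with scipy 1.17.1, numpy 2.4.6 and pandas 2.3.3 in Python 3.11.15, and drawn with matplotlib 3.10.9.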

Additional observations from a re-analysis of the deposited data

How the results depend on the processing

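The count of called ribosomal protein genes was 0 at the reported setting, after adjustment without genes of likelihood ratio 0 or without those averaging under 0 log2 CPM, at an adjusted p under 0.1, and under Bonferroni adjustment. The lowest adjusted p of the family by the authors' likelihood ratio test was 0.479, for RpS10a, so the limit of 0.1 and Bonferroni adjustment could not have called any. At an unadjusted p under 0.05 the count was 1 under both filters. That was fixed too, since the filters leave unadjusted p unchanged and RpS10a averaged 0.45 log2 CPM. Intervals within a 2-fold change numbered 34, but 12 with 99% intervals and 3 with a limit of 1.5-fold, as follows from the stricter limits. The count of positive genes was 64, and 26 when centred on the other genes of average 10 to 12 log2 CPM, an alternative chosen after seeing the data. The difference between the median log2 fold changes of paralogue and single-copy genes was 0.01, and with means it was reversed, at -0.11. With means in place of medians, the log2 fold change of all members was 0.0081 (median 0.04) and the difference of large minus small subunit 0.048 (medians 0.03). The difference in average log2 CPM between paralogue and single-copy genes was -1.42, but -3.65 with means, -0.93 among members averaging at least 0 log2 CPM, -0.80 without the genes ending in "like" and -2.37 with their partners counted as single-copy, the last chosen after seeing the data. The mean log2 fold change of the paralogue genes takes in the copies with low averages that lay beyond 1 in size. The share of single genes in the other shifts was not computed. The other 20 of 30 alternatives, the fixed counts among them, kept the sign and stayed within 1.5 times the reported value. The excess of the implied SE over other genes in the same range of averages was 0.18, with 0.16 to 0.21 under alternatives chosen after seeing the data. Leaving out single samples was not run, and no depth is known, since the values used are those of a comparison. No paired analysis was possible because single samples carry no values here.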

Other observations

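Among the other genes with averages of 10 to 12 log2 CPM, the widest implied SE after Cp36 belonged to the eggshell gene dec-1, at 0.50, Rack1, at 0.49, and the yolk receptor gene yl, at 0.48. Next in width came akirin at 0.47, the yolk protein gene Yp2 at 0.45, CG3800 at 0.43, the eggshell gene Cp18 at 0.42 and the tubulin gene alphaTub84B at 0.42. These genes were named after their values were seen. Their log2 fold changes in the authors' deposited table were 0.32 for dec-1, 0.10 for Rack1, 0.16 for yl, 0.06 for akirin, 0.42 for Yp2, 0.25 for CG3800, 0.18 for Cp18 and -0.09 for alphaTub84B, and none was called. In the reference gene table the protein-coding gene next to RpL12 is RpL39, and the ends of the 2 genes overlap. Both had log2 fold changes near 0, at 0.01 for RpL12 and 0.04 for RpL39 in the authors' deposited table.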
